A study of Naumovozyma castellii with 10 samples.

Results

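Removing the RNase III enzyme Dicer from Naumovozyma castellii cells that already lacked the nonsense-mediated decay helicase Upf1 was examined by small RNA sequencing, with 2 dcr1 upf1 libraries set against 2 upf1 libraries, out of 10 libraries in the series. The comparison took every annotated feature other than the synthetic ERCC controls and kept 1 row for each interval and strand, which left 8407 features of the 8770 entries. They comprised 5600 mRNAs, 1280 CUTs, 1021 XUTs, 304 tRNAs, 146 SUTs, 37 snoRNAs, 12 rRNAs and 7 other non-coding RNAs, and 34 of them lay on the mitochondrial genome. The features were also divided into the 5191 whose mean density in upf1 was at least 2 times that in wild type (WT) and the 3216 others. This division used the upf1 libraries, which are also the controls here, so differences between the 2 sets in the Dicer contrast are given as a description.

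All strains were MATalpha ura3-1 ho. Both groups carried upf1::kanMX6, so the loss of UPF1 was shared by the mutant and its control, and the dcr1 upf1 group in addition lacked DCR1. WT (UPF1 and DCR1 present) served to divide the features, as a reference level and, like all 10 libraries, in the fit that estimated the spread. The remaining 4 libraries came from WT and dcr1 cells given cycloheximide (CHX), which arrests translation, at 100 µg/mL for 15 min. The 6 other libraries, upf1 and dcr1 upf1 included, were untreated, and all cultures grew in rich medium at 25 °C until they reached an OD600 of 0.5. Each genotype was 1 strain, and the labels call the 2 libraries of a group biological replicates without saying more, so the tests measure the spread between these libraries only.

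Dicer cuts double-stranded RNA into small interfering RNAs, which are loaded into Argonaute and guide silencing of matching transcripts. Saccharomyces cerevisiae has lost this pathway, whereas N. castellii has kept it. XUTs are long non-coding RNAs (lncRNAs) that accumulate without the cytoplasmic 5′ exonuclease Xrn1, CUTs are lncRNAs degraded by the nuclear exosome, and SUTs are lncRNAs stable enough to be seen in wild-type yeast. Nonsense-mediated decay, for which Upf1 is the core factor, destroys RNAs on which translation stops prematurely, and many cytoplasmic lncRNAs are among its targets. A small RNA counted on a feature can be a Dicer product or a fragment of the mature RNA made in another way. Libraries without Dicer show how much of the density on a feature remains, but not how each small RNA was made.

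Values are densities in reads per nucleotide, scaled by the authors to small RNAs of Schizosaccharomyces pombe that had been added to each sample. The upf1 libraries held 6237106 and 6904640 reads over the features, and the dcr1 upf1 libraries held 129559 and 141701. The spike-in factors by which reads were multiplied were 0.756 and 0.680 in upf1 and 0.349 and 0.349 in dcr1 upf1. Replicates correlated across the 7727 tested features with Pearson r of 0.965 in upf1 and 0.924 in dcr1 upf1. NAM7, the gene for Upf1, had 13 and 3 reads in the WT libraries and 0 in each of the 4 libraries from upf1 strains. The gene table names no DCR1, so the deletion of Dicer was not checked at its locus. In whole-culture RNA, fewer cells making a small RNA and less of it per cell cannot be told apart.

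Most small RNAs of upf1 cells disappeared with Dicer. Of the 7727 features dense enough to test, 6480 (83.9%) were lower in dcr1 upf1 than in upf1 and 22 (0.285%) were higher at a limma adjusted p of 0.05, and the median log2 fold change was -3.13. Without dcr1 upf1 replicate 2, 13 features were higher, 10 of them tRNAs. With scaling on tRNA, rRNA and snoRNA, on the median tRNA or with none in place of the spike-in, 121, 52 and 163 were higher. Both dcr1 upf1 libraries lay below both upf1 libraries for 6957 features (90%) and above them for 91 (1.18%). The share of features called lower ranged over the nuclear chromosomes from 83.0% on chromosome 5 to 86.8% on chromosome 10. No read was found in either dcr1 upf1 library for 1786 features, 21.2% of all, and 1300 of these were among the tested features. In the upf1 libraries 7.26% and 6.52% of features were already at 0. Summed over all features, density was 3750 and 3803 in the upf1 libraries and 183 and 199.6 in the dcr1 upf1 libraries. In the mean that was 5.06% of upf1. A read on a short feature adds more to this sum, and tRNAs held 76.6% and 75.1% of it in the dcr1 upf1 libraries.

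**Figure D1:**
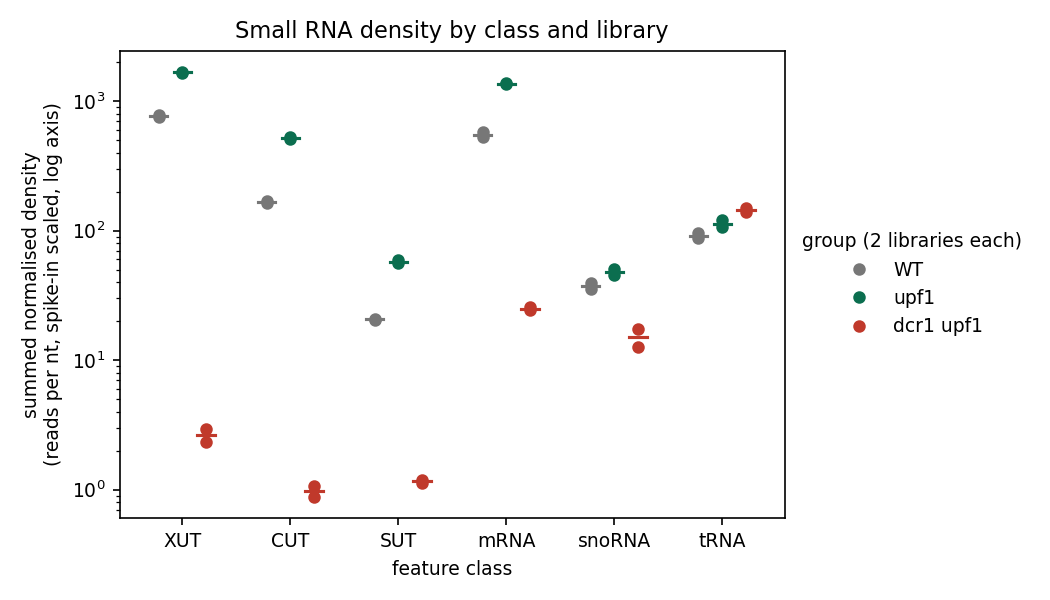
Summed density (reads per nucleotide, spike-in scaled, log axis) of 6 feature classes in WT, upf1 and dcr1 upf1. Points are the 2 libraries of a group and bars their mean. XUT density was 1655 and 1682 in upf1 against 2.34 and 2.93 in dcr1 upf1, while mean tRNA density was 113 in upf1 and 145 in dcr1 upf1.

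The lncRNAs lost nearly everything. XUT density was 1655 and 1682 in the upf1 libraries and 2.34 and 2.93 in the dcr1 upf1 libraries, 0.158% ± 0.021 of upf1 (SD over pairs of libraries). CUT density fell from 528 and 509 to 0.884 and 1.07, 0.188% of upf1. SUT density was 58.9 and 56.2 before and 1.14 and 1.19 after, 2.02% of upf1. The groups did not overlap in any of these sums, and the exact two-sided permutation p was 0.333 for each, the smallest that 2 against 2 libraries allow. Feature by feature, 889 of 927 tested XUTs were lower (median log2 fold change -5.73), 1023 of 1120 CUTs (-4.85) and 109 of 128 SUTs (-3.96). The median CUT had a density of 0 in dcr1 upf1. Uncalled lncRNAs were mostly sparse. The 38 uncalled XUTs had a median density of 0.00219 in upf1, against 0.104 for the called ones.

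The 8 largest falls were 4 CUTs or XUTs near or above a density of 7 in upf1, 2 sparser CUTs and 2 mRNA strands. CUT0438 (chromosome 2, 727726 to 728429, plus strand) showed the largest. Its density was 10.7 and 11.1 in upf1 and 0.00447 and 0.00446 in dcr1 upf1, where it had 9 reads in each library (log2 -10.84, SE 0.20, limma adjusted p = 9.33e-10). XUT0919 and XUT0920, neighbouring transcripts at the left end of chromosome 9 (4830 to 5079 and 5104 to 5572), had densities of 8.61 and 8.32, and of 8.07 and 7.35, in upf1. Both were between 0.00149 and 0.00669 in the dcr1 upf1 libraries. XUT0058 (chromosome 1, 601672 to 603421, minus strand) went from 7.74 and 7.42 to 0.00200 and 0.00538. All of these were sparse in WT, at 0.0465 to 0.209, and the dcr1 upf1 values were lower still. CUT0427 (chromosome 2, 589397 to 589617) had 657 and 643 reads in upf1 and 0 in both dcr1 upf1 libraries. Taking 3 reads over both libraries as a floor, that is a density at least 892-fold lower. CUT1140 on chromosome 8 had 1296 and 1348 reads in upf1 and 0 and 1 in dcr1 upf1.

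The densest lncRNAs had a small but countable number of reads in dcr1 upf1. XUT0769 (chromosome 7, 140238 to 141990, minus strand), the densest of all, had densities of 341 and 395 in upf1 and 0.400 and 0.533 in dcr1 upf1, from 2006 and 2680 reads. XUT0620 on chromosome 5 had 157 and 141 in upf1 and 0.180 and 0.240 without Dicer. XUT0859 on chromosome 8 had 111 and 108, then 0.0949 and 0.120. Their log2 fold changes were -9.63, -9.47 and -9.99, each with a limma adjusted p of 9.33e-10 to 1.12e-09. These 3 transcripts thus kept between 0.098% and 0.141% of their upf1 density.

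The remainder was a similar fraction across the dense nuclear features. Among the 40 nuclear features with a mean density of 10 or more in upf1, dcr1 upf1 replicate 1 kept a median of 0.104% of the upf1 mean, with 80% of features between 0.0636% and 0.144%. Replicate 2 kept 0.131%, with a range of 0.0791% to 0.173%. Replicate 2 was above replicate 1 by a median factor of 1.27 over these features. The same 40 features kept a median of 0.415% and 0.305% in the 2 dcr1 CHX libraries, relative to WT CHX. Whether these reads came from the dcr1 upf1 cells or were carried over from other libraries was not tested, so the remainders of dense features are those of the libraries. In the plot of mean density with and without Dicer, these features follow a line at 1/1000 of the upf1 level, and the sparser lncRNAs spread out on both sides of it.

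**Figure D2:**
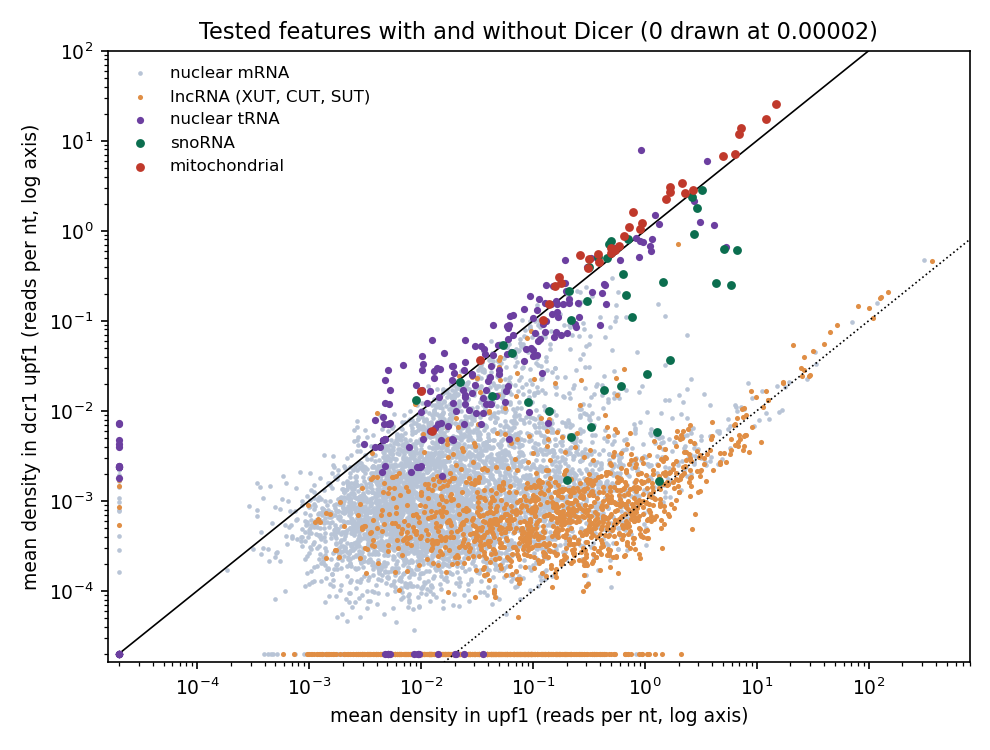
Mean density in dcr1 upf1 against mean density in upf1 for each tested feature (both axes log, reads per nucleotide, 0 drawn at 0.00002). The solid line marks equal density and the dotted line 1/1000 of the upf1 level; dense lncRNAs lie along the dotted line, and most mitochondrial features lie at or above the solid one.

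A few lncRNAs kept much of their density. SUT005 (chromosome 1, 480371 to 480820, minus strand) was the densest SUT left, with 1.93 and 2.04 in upf1 and 0.733 and 0.702 in dcr1 upf1 (log2 -1.47, SE 0.16, limma adjusted p = 1.73e-05). It fell to 36.1% of upf1, though with no spike-in scaling the fall did not pass the test, and it held most of the SUT density that remained. SUT060 kept 72.0% and SUT003 79.2%, and neither passed the test (limma adjusted p = 0.14 and 0.188). CUT0214 on chromosome 1 kept 73.0% (adjusted p = 0.567). SUT098, named after its values were seen because it was the single lncRNA called higher, rested on 2 and 5 reads in upf1 and 15 and 18 in dcr1 upf1 (log2 1.05, SE 0.30, limma adjusted p = 0.00970). It did not pass without dcr1 upf1 replicate 2 (log2 0.94, adjusted p = 0.054) or without upf1 replicate 1 (log2 0.63, adjusted p = 0.081).

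Small RNAs on mRNA strands fell too, but less evenly. Summed density over mRNAs was 1349 and 1390 in upf1 and 24.3 and 25.6 in dcr1 upf1, 1.82% of upf1. Of 5267 tested mRNAs, 4397 were lower and 4 higher, with a median log2 fold change of -2.64. mRNAs that face a lncRNA on the opposite strand lost more: 1168 of 1247 were lower, with a median of -4.07. Nuclear mRNAs with no antisense feature had 3213 of 3996 lower and a median of -2.28. The 2 groups were not tested against each other, and the first was also denser in upf1, with a median of 0.0436 against 0.0144.

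The size of the fall went with density. Among nuclear mRNAs below 0.01 in upf1, 1182 of 1843 were lower and the median feature kept 16.2% of its density. Between 0.1 and 1 the counts were 797 of 816, and the median remainder 0.673%. All 15 nuclear mRNAs at 10 or more were lower and kept a median of 0.102%, close to the 0.127% of the 25 lncRNAs in the same range. NCAS_0C00240 (chromosome 3, 28852 to 30168) and NCAS_0B02040 (chromosome 2, 335075 to 336040), the mRNA strands with the largest falls, went from 14.7 and 16.7 to 0.00637 and 0.0132, and from 16.9 and 16.4 to 0.0116 and 0.00866. Their log2 fold changes were -10.51 (SE 0.30) and -10.50 (SE 0.27). AQY1, which encodes an aquaporin and faces a lncRNA, went from 19.4 and 19.2 to 0.0194 and 0.0222 (log2 -9.76, SE 0.18, limma adjusted p = 9.33e-10).

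Pairs of an mRNA and an opposing lncRNA changed their strand balance. Of 1580 pairs with both members tested, both fell in 1454 (92.0%). In 1329 pairs with at least 1 read in each of the 4 libraries, the median share of a pair's density on the mRNA strand was 43.1% and 42.6% in the upf1 libraries and 100% and 99.5% in the dcr1 upf1 libraries. The share was higher in both dcr1 upf1 libraries than in both upf1 libraries for 889 pairs and lower for 116. In the 357 pairs with at least 10 reads in each library, the median went from 48.0% and 48.4% to 90.02% and 89.3%. Among 459 pairs that overlap over at least 50% of the mRNA it went from 48.8% and 48.4% to 73.4% and 72.3%. In the median pair, then, density on the 2 strands was near parity with Dicer, and the density left without it lay mostly on the mRNA strand. These are medians over pairs, taken on whole features rather than on the overlap, and they do not count where all reads lay. Each exact two-sided permutation p was 0.333, the smallest possible here, and pairs can share an mRNA.

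Features that upf1 cells had gained over WT lost most. Of the 5191 such features 4939 were tested, and 4604 of them (93.2%) were lower and 2 higher in dcr1 upf1, and the median log2 fold change was -4.12. Of the others 2788 were tested, and 1876 (67.3%) were lower and 20 higher, with a median of -1.64. The 396 tested features with a ratio of upf1 to WT between 1.8 and 2, just outside the division, had 325 lower and a median of -2.37. The 331 between 2 and 2.2 had 282 lower and a median of -2.53.

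Measures that did not use the upf1 libraries showed less difference between the sets. The median density in dcr1 upf1 was 0.000718 in the raised set and 0.000951 in the others. Both medians lie below the pseudocount of 0.00145, and 18.1% and 14.6% of the tested features had no reads in dcr1 upf1. At such low counts the 2 levels cannot be told apart. Both dcr1 upf1 libraries lay below both WT libraries for 3940 of the raised features (79.8%) and 2139 of the others (76.7%). The WT libraries also entered the division, so this count is not independent of it and cannot compare the sets. In the CHX libraries, loss of Dicer lowered 4517 of the raised features (91.5%), with a median of -3.47, and 2211 of the others (79.3%), with a median of -2.32.

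**Figure D3:**
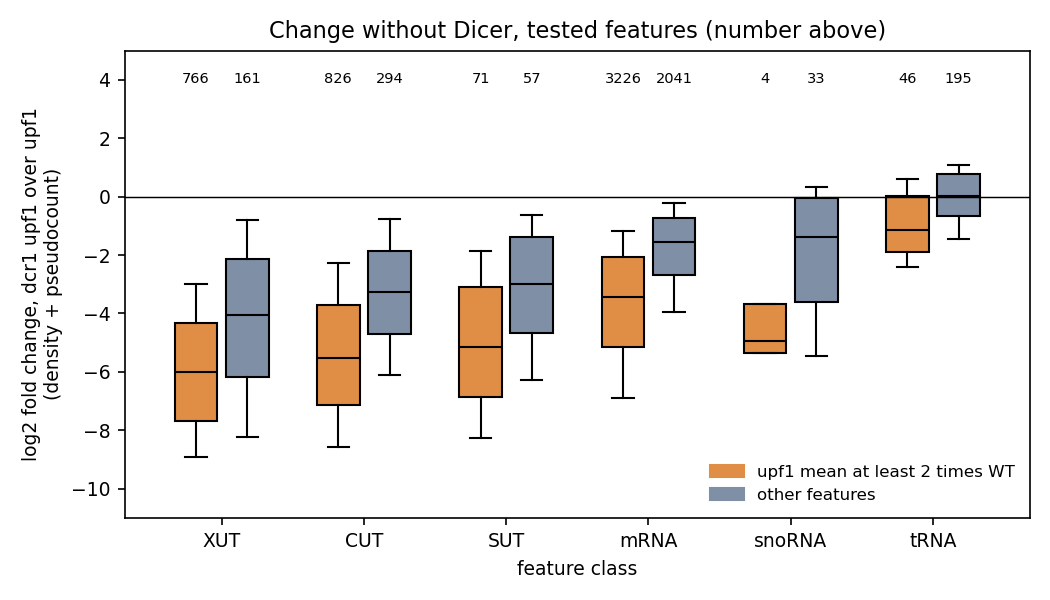
Log2 fold change of dcr1 upf1 over upf1 for tested features of each class, for features with a upf1 mean at least 2 times WT (orange) and others (blue). Boxes show the quartiles and median, whiskers the 10th and 90th percentile, and numbers above the features in each box; the raised set lies lower in each of the 6 classes, and this division shares the upf1 libraries with the contrast.

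The division separated classes in the same way. Raised XUTs had a median log2 fold change of -5.995 (752 of 766 lower) and the other XUTs -4.04 (137 of 161). Raised CUTs had -5.52 (784 of 826) and the others -3.26 (239 of 294). Among mRNAs the medians were -3.44 (2988 of 3226 lower) and -1.57 (1409 of 2041 lower, 4 higher). Of the 40 nuclear features at a density of 10 or more in upf1, 26 belonged to the raised set. XUT0769 and XUT0620, in the other set, were already dense in WT, at 197 and 190 and at 86.9 and 82.6, and kept 0.127% and 0.141% of their upf1 density, against 0.098% for the raised XUT0859.

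mRNA strands of single pathways differed widely in what remained, as shown in the plot of gene lists. The median nuclear mRNA kept 5.38% of its upf1 density, and 83.6% of tested nuclear mRNAs were lower. The lists also differed in density in upf1, with which the fall went. Its median was 0.102 for cell surface and mating genes, 0.0446 for nutrient transporters and 0.0489 for ribosomal protein genes. For all nuclear mRNAs it was 0.0183, and how far density accounts for the differences between lists was not tested. Genes for cell surface and mating proteins kept a median of 0.242% (10 of 11 lower). STE2, which encodes the receptor for alpha-factor in S. cerevisiae, had 2.22 and 2.29 in upf1 and 0.00195 and 0.00243 in dcr1 upf1 (log2 -9.28, SE 0.26, limma adjusted p = 2.39e-09). BAR1, the secreted protease that degrades alpha-factor, went from 0.548 and 0.518 to 0.000215 and 0.000859. AXL2, a membrane protein of bud-site selection, went from 0.581 and 0.569 to 0.000286 and 0.000714, and AXL1, a protease that matures a-factor, from 0.425 and 0.456 to 0.000678 and 0.00145. All 4 face a lncRNA on the opposite strand, and in WT none was above 0.0348.

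Nutrient transporter genes kept a median of 1.53%, and all 23 of 23 were lower. Members ranged from 0% for ALP1 to 12.3% for TAT1, and the genes given next were picked by size of change. MUP1, the high-affinity methionine permease, went from 1.02 and 1.10 to 0.000994 and 0.000595 (log2 -8.89, SE 0.25, limma adjusted p = 2.44e-09). BAP2, a permease for branched-chain amino acids, went from 2.69 and 2.70 to 0.00762 and 0.00526. PHO84, the high-affinity phosphate transporter, went from 0.133 and 0.121 to 0.000744 and 0.000557, and DIP5, which imports acidic amino acids, from 0.215 and 0.224 to 0.00214 and 0.00194. The dcr1 upf1 values of these 4 genes rest on 3 to 39 reads per library.

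Genes of RNA decay also fell in most cases, as did nuclear mRNAs at large (83.6% lower, median remainder 5.38%). Those of decapping and 5′ decay had 14 of 19 lower (73.7%) and a median remainder of 5.47%. Those of the exosome and Ski complexes had 17 of 22 lower (77.3%) and 5.34%. Members ranged widely, with LSM2, LSM4 and RRP6 at 122%, 257% and 169% of upf1, none of them called higher. The genes given next were picked by size of change. DCP1, a subunit of the decapping enzyme, went from 0.607 and 0.571 to 0.00110 and 0.00439 (log2 -7.26, SE 0.36, limma adjusted p = 6.28e-08). RRP42, an exosome subunit, went from 0.231 and 0.183 to 0 and 0.00173, and SEN1, the helicase that acts with Nrd1 in ending non-coding transcription, from 0.205 and 0.202 to 0.00171 and 0.00321. Of 5 nonsense-mediated decay genes, 4 were lower and NAM7 itself was at 0 in both groups. NMD2, the gene for Upf2, went from 0.0339 and 0.0395 to 0.000324 and 0.000431 (log2 -4.38, SE 0.24), and UPF3 from 0.0135 and 0.0116 to 0.000542 and 0.000811 (log2 -2.72, SE 0.32). Deadenylation genes had 9 of 12 lower with a median remainder of 15.7%. The list of tRNA processing genes had 11 of 13 lower and kept 10.01%. In it SEN15, a subunit of the tRNA splicing endonuclease, went from 0.524 and 0.530 to 0.00269 and 0.00805.

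**Figure D4:**
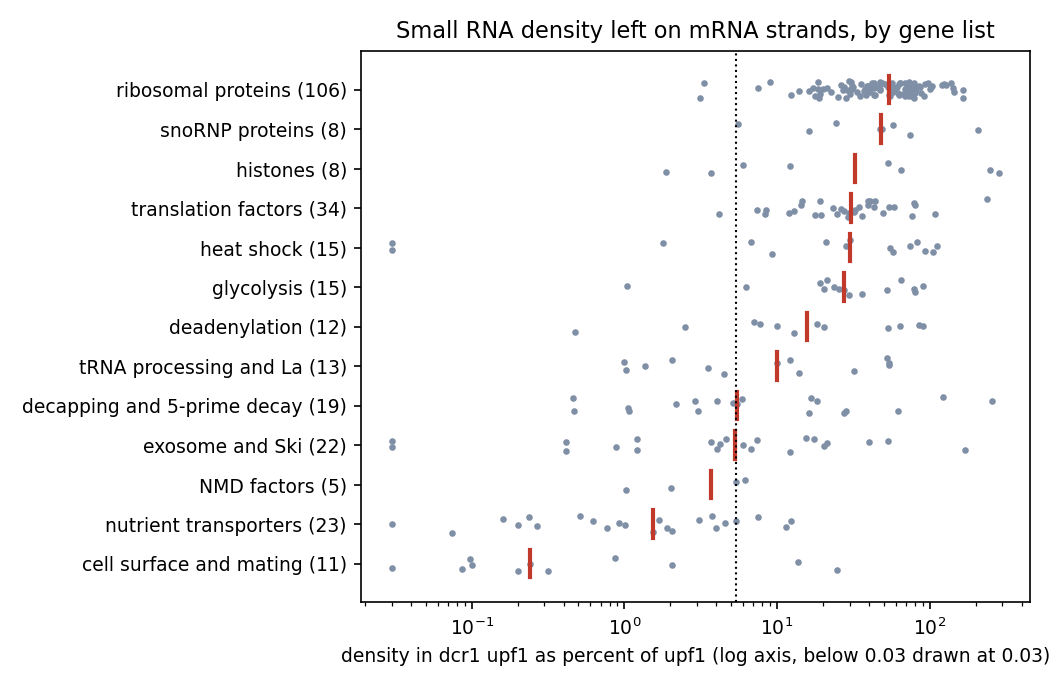
Density in dcr1 upf1 as percent of upf1 (log axis) for tested mRNAs of 13 gene lists, with the number tested in brackets. Points are genes, red bars medians and the dotted line the median of all nuclear mRNAs, 5.38%; ribosomal protein genes lie highest with a median of 54.0% and cell surface and mating genes lowest with 0.242%.

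The lists of ribosomal proteins, translation factors, glycolysis and heat shock had higher median remainders than all nuclear mRNAs, a difference that was not tested. Ribosomal protein genes kept a median of 54.0% of their upf1 density. Of 106 tested, 61 were lower and 1 higher, and the number lower was 28 when libraries were scaled on tRNA, rRNA and snoRNA and 18 with no spike-in scaling. RPL18B was an exception, at 0.120 and 0.115 in upf1 and 0.00407 and 0.00325 in dcr1 upf1 (log2 -4.54, SE 0.24, limma adjusted p = 1.04e-07). RPS9A went from 0.0927 and 0.121 to 0.00442 and 0.00271. Translation factor genes had 24 of 34 lower and kept 30.6%, and heat shock genes 9 of 15 lower and 29.9%. Glycolysis genes had 11 of 15 lower and kept 27.4%. PDC1, pyruvate decarboxylase, kept 0.0633 and 0.0736 of 0.324 and 0.321, whereas ADH1, alcohol dehydrogenase, kept 0.00184 and 0.00367 of 0.262 and 0.268. Reads on paralogous genes such as these may be shared between copies, since how multiply mapping reads were counted is not stated in the sources used here.

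Genes for snoRNP proteins had 3 of 8 lower and kept a median of 48.0%. SNU13, which binds the kink-turn of box C/D snoRNAs, went from 0.411 and 0.458 to 0.0202 and 0.0284 (log2 -4.10, SE 0.23, limma adjusted p = 1.55e-07). CBF5, the pseudouridine synthase of box H/ACA snoRNPs, went from 0.0498 and 0.0476 to 0.0247 and 0.0225 (log2 -1.003, SE 0.20, limma adjusted p = 0.00115), a fall that was not called with no spike-in scaling (log2 -0.01) or with scaling on tRNA, rRNA and snoRNA (log2 -0.26). Of 8 histone genes 4 were lower and 2 higher. HHO1, the linker histone, went from 0.0682 and 0.0594 to 0.000955 and 0.00143 (log2 -4.63, SE 0.24). The core histone genes HTA1 (H2A) and HHT1 (H3) were the higher ones, at 0.00190 and 0.00341 against 0.00613 and 0.00699, and at 0.00368 and 0.00165 against 0.00510 and 0.0102. Their limma adjusted p-values were 0.0425 and 0.0307, and HTA1 had 1 and 2 reads in upf1 against 7 and 8, and HHT1 2 and 1 against 6 and 12. The other 2 mRNAs called higher were CAT5, of coenzyme Q synthesis, with 3 and 3 reads in upf1 against 14 and 9 (adjusted p = 0.0478), and RPL24A, with 7 and 8 against 27 and 24 (adjusted p = 0.0431). All 4 are named because so few rose, after their values were seen, and each lost the call when at least 2 of the 4 libraries were left out in turn. Without dcr1 upf1 replicate 2, HTA1 had a log2 fold change of 0.91, HHT1 of 0.72 and RPL24A of 0.74. Without upf1 replicate 1 the values were 0.72 for HTA1, 0.67 for CAT5 and 0.65 for RPL24A, and without upf1 replicate 2 they were 0.77 for HHT1, 0.57 for CAT5 and 0.68 for RPL24A. Without dcr1 upf1 replicate 1 they were 1.07 for HTA1, 0.38 for CAT5 and 0.58 for RPL24A.

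Fragments of snoRNAs, the guide RNAs of rRNA modification, were lost to very different extents. Summed density was 50.9 and 45.1 in upf1 and 12.7 and 17.4 in dcr1 upf1, 31.3% ± 6.03 of upf1. Of 37 snoRNAs 23 were lower and none was higher, and 17 to 20 were lower under the other scalings. The scaling on tRNA, rRNA and snoRNA has these snoRNAs in its reference, so it is not independent of them. Less than 10% of the upf1 density remained for 13, and 50% or more for 16. ENSRNA049639735 (chromosome 10, 415582 to 415790, plus strand) fell most, from 1.24 and 1.44 to 0 and 0.00334 (log2 -8.99, SE 0.47, limma adjusted p = 8.14e-08). ENSRNA049639716 on chromosome 9 went from 1.21 and 1.33 to 0.00330 and 0.00822. At the other end, ENSRNA049639877 (chromosome 3, 687790 to 687873), the densest snoRNA left, had 3.56 and 2.94 in upf1 and 2.06 and 3.57 in dcr1 upf1 (adjusted p = 0.37), and ENSRNA049639953 had 2.66 and 2.61 against 2.45 and 2.33 (adjusted p = 0.414). Both were higher in dcr1 upf1 with no spike-in scaling, by a log2 of 0.79 and 0.90, and the former was lower without dcr1 upf1 replicate 2 (log2 -0.65, limma adjusted p = 0.016). The groups overlapped for the former and not for the latter.

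**Figure D5:**
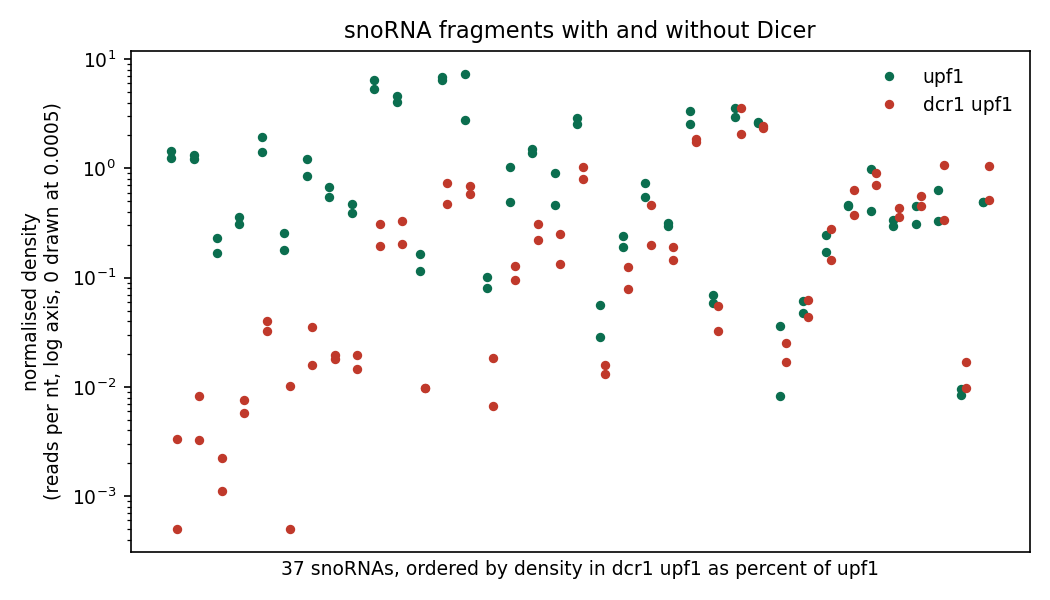
Density (reads per nucleotide, log axis, 0 drawn at 0.0005) of each of 37 snoRNAs in the 2 upf1 and 2 dcr1 upf1 libraries, ordered by the percent of upf1 density that remained. The 13 snoRNAs on the left kept less than 10%, and the 16 on the right kept 50% or more, with the groups touching or overlapping for many of them.

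The long snoRNAs lost more than the short ones. The 18 of 120 nucleotides or more kept a median of 10.5% of upf1 and 12 were lower. The 19 shorter ones kept a median of 51.8% and 11 were lower. In the CHX libraries, loss of Dicer left a median of 12.5% on the long and 101% on the short snoRNAs. The boundary of 120 nucleotides was chosen with values known, and the 2 groups were not tested against each other. Annotated rRNA outside mitochondria had no reads in any of these libraries. Among other non-coding RNAs 3 of 5 tested were lower.

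tRNA fragments made up most of the summed density that was left, a measure in which a read on a short feature weighs more. They held 2.82% and 3.15% of all density in the upf1 libraries and 76.6% and 75.1% in the dcr1 upf1 libraries. Mitochondrial features of all classes held 59.5% and 56.8% of density in dcr1 upf1. By reads mRNAs held the most, with 70981 and 75210 of the 129559 and 141701 in the dcr1 upf1 libraries. tRNAs had 31658 and 33691 of these reads, and mitochondrial features 40386 and 41042. Of 241 tested tRNAs 36 were lower and 17 higher, around a median log2 fold change of 0.00. Under scaling on tRNA, rRNA and snoRNA, on the median tRNA or with none, 10, 17 and 8 were lower and 65, 39 and 71 higher. The sum over all tRNAs was 128% of upf1 with the spike-in and 220.2%, 167% and 263% with those scalings. Summed density over nuclear tRNAs was 43.4 and 43.2 in upf1 and 35.9 and 40.8 in dcr1 upf1, 88.6% ± 6.47. Copies of a tRNA can share reads, so single tRNA values are uncertain.

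A single nuclear tRNA stood out. NCAS_0Ctrna1F (chromosome 3, 588442 to 588540, minus strand) had 0.902 and 0.954 in upf1 and 8.39 and 7.59 in dcr1 upf1, an 8.61-fold rise (log2 3.10, SE 0.19, limma adjusted p = 2.79e-07). The WT libraries had 0.279 and 0.254. With CHX its density was 4.37 and 6.01 with Dicer and 10.7 and 9.69 without. The dcr1 libraries thus held more of it than the matching Dicer-proficient ones in both settings, and the WT libraries the least. NCAS_0Atrna10L rose from 0.205 and 0.179 to 0.418 and 0.529 (log2 1.29, SE 0.31, limma adjusted p = 0.00351). These 2 tRNAs were the only features of the 22 called higher that kept the call in all 17 alternative fits. NCAS_0Ctrna1F and 1 other tRNA, ENSRNA049588296, were the 2 raised features called higher, the latter named after its values were seen, at 3.44 and 3.72 against 6.08 and 5.77 (log2 0.73, SE 0.26, limma adjusted p = 0.0272). Leaving out any 1 of the 4 libraries ended the call of ENSRNA049588296, at log2 values of 0.67 to 0.79.

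Mitochondrial RNA fragments were not lost. Summed mitochondrial density was 66.1 and 80.3 in upf1 and 109 and 113 in dcr1 upf1, 152% ± 17.6. Of 34 features none was lower and 6, all tRNAs, were higher, and the median log2 fold change was 0.48. tRNA-17279 (chrmt, 17279 to 17350), the densest, went from 14.0 and 15.7 to 20.4 and 30.7 (log2 0.75, SE 0.24, limma adjusted p = 0.0141). tRNA-25139 went from 6.01 and 8.35 to 12.8 and 14.6 (log2 0.95, SE 0.23, limma adjusted p = 0.00336). The mRNAs of the respiratory chain did not pass the test. COX1, of cytochrome c oxidase, had 0.308 and 0.313 against 0.406 and 0.372, COX3 0.359 and 0.418 against 0.477 and 0.422, and COB, cytochrome b, 0.360 and 0.400 against 0.655 and 0.450. The 2 mitochondrial rRNAs kept 113% and 114%. The number of mitochondrial features called higher depended on scaling. It was 32 with no spike-in scaling, 32 with scaling on tRNA, rRNA and snoRNA and 15 with scaling on the median tRNA, and COX1, COX3 and COB passed the test under the first 2 of these. No spike-in scaling leaves library depth uncorrected, and the tRNA, rRNA and snoRNA reference includes snoRNAs, whose sum itself fell to 31.3% of upf1. Without dcr1 upf1 replicate 2 the log2 fold change of tRNA-17279 was 0.46 and without upf1 replicate 1 it was 0.67, and neither passed (limma adjusted p = 0.10 and 0.076).

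Loss of Dicer in CHX-treated cells, which shares no library with this contrast, lowered 6728 features (87.1%) and raised 47 (0.608%). In all 6142 features fell in both, 94.8% of those that fell in upf1 cells and 91.3% of those that fell with CHX. The difference between the 2 Dicer effects was tested in the same fit. The fall was larger in upf1 cells for 1422 features (18.4%), and 409 (5.29%) had a smaller fall or a larger rise there. The latter count was 214 to 276 when any 1 of the 4 libraries of this contrast was left out. It was 1440 or 93 with a pseudocount 10 times larger or smaller and 124 with limma-voom, and the larger falls numbered 875 with the smaller pseudocount. XUTs accounted for 357 of the first and 27 of the second, CUTs for 288 and 40, and mRNAs for 741 and 329. The control arms differ as well, and the raised set held 1362 of the 1422. For STE2, AXL2 and BAR1 the effect in upf1 minus that with CHX was a log2 of -4.52, -4.62 and -2.999, while for ADH1, which fell less in upf1, it was 2.10.

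Among the snoRNAs, 6 fell more in upf1 cells, and for 1 the difference went the other way. That one, ENSRNA049639743, was at 110% of upf1 without Dicer (limma adjusted p = 0.736) and fell to 49.7% with CHX. The 2 with the largest difference, named like it after their values were seen, did not pass the test of Dicer loss with CHX. ENSRNA049639828 (chromosome 1, 133614 to 133705, minus strand) had 4.58 and 4.05 in upf1 against 0.201 and 0.330 in dcr1 upf1, but 4.22 and 5.28 in WT CHX against 8.35 and 5.45 in dcr1 CHX. The difference of the effects was a log2 of -4.57 (SE 0.59, limma adjusted p = 0.000896). ENSRNA049639797 had 7.37 and 2.77 against 0.577 and 0.689, and 4.99 and 6.65 against 8.37 and 7.77 with CHX, a difference of -3.32 (SE 0.57, limma adjusted p = 0.00362). Low values thus appeared in the dcr1 upf1 libraries and not in the dcr1 CHX libraries.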

How the data were processed

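Per the labels' protocols, total RNA of each culture was mixed with S. pombe RNA before gel purification of short RNA and library construction. The authors deposited a coverage signal, the read density per nucleotide of each feature scaled to S. pombe spike-in reads. Bowtie, Trim Galore and ASM294v2, a build of S. pombe, appear in the submitters' processing notes. The sources used here do not state the N. castellii build, the read lengths counted or the handling of multiply mapping reads, and coordinates are those of the deposited table. Densities times length were whole multiples of 1 step per library for 100% of entries (tolerance 0.001 reads), which gave reads and spike-in factors. The 5 deposited columns of group means were not used. Gene symbols of 4484 mRNAs came from the RefSeq table of assembly ASM23734v1.

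Each contrast was tested with limma 3.58.1 (R 4.3.3) on log2(density + 0.00145), a scale that understates changes of sparse features, with all 10 libraries in a group-means model, a variance trend, two-sided tests and Benjamini-Hochberg adjustment over 7727 features with a mean at or above the pseudocount. That pseudocount is the median over libraries of their 10th percentile of non-zero densities. Because the values are not counts, a count model was not the main test, and limma-voom on recovered reads was an alternative. Other alternatives changed the pseudocount, filter, scaling, libraries fitted, variance prior, replicate block, overlapping annotations, the division and the pairs. Counting error alone sets the floor of 3 reads. The procedure was tested on simulated data. On the same strand, 774 features overlap another feature, and their values are not independent.

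The members, the gene lists and the tests were chosen with earlier results of these data known. Features were named by rule: the 8 largest falls and rises among called features with separate replicates and a higher group mean of at least 0.0253, the densest lncRNAs and mRNAs of each set, the 3 densest of each class in dcr1 upf1, NAM7, and up to 4 members of each gene list. An RNAi gene list (DCR1 and AGO1) had no match.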

Additional observations from a re-analysis of the deposited data

Results flagged for a closer look

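The effect of losing Dicer differed between upf1 cells and CHX-treated cells by the test of the difference itself, in the same limma fit, for 1422 features with a larger fall in upf1 and 409 with a smaller fall or a larger rise. The second count was 1440 or 93 with a pseudocount 10 times larger or smaller and 124 with limma-voom, and the first was 875 with the smaller pseudocount. The control arms, upf1 and WT CHX, differ as well, and the raised set held 1362 of the 1422. Median density in that set was 0.000718 in dcr1 upf1 and 0.00154 in dcr1 CHX, near the pseudocount of 0.00145. How far the control arms account for the differences was not tested. The values below are the log2 effect in upf1 minus that with CHX, each with a limma adjusted p under 0.05. Among the features described, the differences on the lncRNAs with the largest falls were -7.51 for XUT0919, -6.40 for XUT0920, -5.95 for XUT0058, -5.81 for CUT0438, -4.41 for CUT0427 and -4.06 for CUT1140. The densest XUTs differed less, at -2.03 for XUT0859, -1.26 for XUT0769 and -1.05 for XUT0620. On mRNA strands the differences were -4.62 for AXL2, -4.60 for NCAS_0C00240, -4.52 for STE2, -4.04 for NCAS_0B02040, -3.69 for AXL1, -3.31 for MUP1, -3.02 for AQY1 and -2.999 for BAR1. They were -2.61 for DIP5, -2.31 for SEN15, -2.26 for SEN1, -2.17 for PHO84 and -1.23 for RPS9A. The snoRNAs ENSRNA049639828 and ENSRNA049639797 were at -4.57 and -3.32. In the other direction were SUT005 at 0.92, RPL24A at 1.53, ADH1 at 2.10, SUT098 at 2.11, NCAS_0Ctrna1F at 2.12 and CAT5 at 2.35. NAM7 was at 2.001, and it is deleted in both upf1 groups and present in both CHX groups. No group had enough libraries for a check on single outlying samples.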

How the results depend on the processing

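The counts of lower features moved by over 1.5 times where fewer features were tested and, for tRNAs and ribosomal protein genes, with other scalings. With a filter 10 times higher, 3702 features were lower (2239 mRNAs, 2832 raised and 870 other features), and without overlapping annotations 584 XUTs and 680 CUTs were. Scaling mattered most. The median log2 fold change was -3.13 with the spike-in, -2.84 with scaling on tRNA, rRNA and snoRNA, -3.13 with scaling on the median tRNA and -2.58 with none. With those 3 scalings, in that order, 121, 52 and 163 features were higher (111, 48 and 142 of the others), as were 65, 39 and 71 tRNAs and 32, 15 and 32 mitochondrial features, while 10, 17 and 8 tRNAs were lower. Ribosomal protein genes had 28 lower with the first and 18 with the last. The sums in dcr1 upf1 became 0.269%, 0.204% and 0.324% of upf1 for XUTs, 0.322%, 0.243% and 0.387% for CUTs, 3.47%, 2.62% and 4.14% for SUTs, 3.13%, 2.36% and 3.73% for mRNAs, 53.3%, 40.2% and 64.4% for snoRNAs and 220.2%, 167% and 263% for tRNAs. Without the 10 densest features the XUT and mRNA sums were 0.188% and 2.79%, and without overlapping annotations the CUT and SUT sums were 0.285% and 2.17%. Fitting the 6 untreated libraries alone left 14 features higher (10 tRNAs, 13 of the others). Leaving out each library in turn gave 13 to 28 features higher, 10 to 22 tRNAs higher, 12 to 26 of the others higher and 214 to 276 features with a smaller fall or a larger rise in upf1 than with CHX. That last count was 192 with the higher filter, 124 with limma-voom, 259 with no spike-in scaling and 1440 or 93 with a pseudocount 10 times larger or smaller, and the larger falls numbered 875 with the smaller pseudocount. Dividing features at 4 times WT gave medians of -5.16 and -2.26. The strand share rose by 56.9 percentage points in all pairs, 24.2 in pairs overlapping by 50% and 41.5 in pairs with 10 reads. With no spike-in scaling the log2 fold change reversed to 0.68 for SUT003, 0.79 for ENSRNA049639877, 0.90 for ENSRNA049639953, 0.34 for ENSRNA049639730, 0.72 for ENSRNA049639705, 0.98 for ENSRNA049639831, 1.00 for ENSRNA049639944 and 0.16 for ENSRNA049639873, and with scaling on tRNA, rRNA and snoRNA to 0.64 for ENSRNA049639953, 0.077 for ENSRNA049639730 and 0.74 for ENSRNA049639944. Other than the effect of scaling itself and of testing fewer features or samples, the cause was not tested. Same-numbered libraries did not deviate together (r from -0.031 to 0.020), so the numbers do not pair the samples; with a replicate block 6458 features were lower and 22 higher, and the interaction gave 1344 and 335. Reads in dcr1 upf1 limit what can be said of sparse features, and 1786 features, not all of them sparse in upf1, had none.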

Other observations

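Heat shock genes ranged from 0% to 112% of upf1 among the 15 tested, with 9 lower. HSP26, a small heat shock protein, had 16 and 15 reads in upf1 and 0 in both dcr1 upf1 libraries, and SSA3, an Hsp70 chaperone, had 39 and 54 reads and then 0. With 3 reads over both libraries as the floor, their densities were at least 21.3-fold and 63.2-fold lower. HSP104, a disaggregase, went from 0.0177 and 0.0177 to 0.000128 and 0.000511 (log2 -3.45, SE 0.43, limma adjusted p = 4.47e-05). Among deadenylation genes, NOT5, a subunit of the Ccr4-Not complex, went from 0.0541 and 0.0727 to 0.000200 and 0.000399, whereas POP2, a catalytic subunit of that complex, kept 7.79%.

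Set against WT, summed density in dcr1 upf1 was 0.342% (XUTs), 0.586% (CUTs), 5.62% (SUTs), 4.52% (mRNAs) and 158% (tRNAs) of the WT mean. Of the raised features that were tested, 165 had both dcr1 upf1 libraries above both WT libraries.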
